A study of Mus musculus with 4 samples.

Results

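The granzymes and cytotoxic effectors described here are 8 genes chosen by name: Gzma, Gzmb, Gzmk, Gzmm, Prf1, Nkg7, Ifng and Fasl. They are 8 of the 54456 gene symbols in the count matrices, all 8 were found, and the rule that names them uses no measured value. They were followed in CD8, CD4, NKT-like, gamma-delta T, NK and type 1 innate lymphoid (ILC1) cells from mouse liver. The data are 10x Genomics 3′ single-cell libraries of liver non-parenchymal cells, that is liver cells other than hepatocytes, from C57BL/6J mice aged 30 weeks. Each group had 1 library: S, HFD_sed and HFD_EXE, with HFD standing for high fat diet in the series title. The labels give neither the meaning of S, sed and EXE nor the number of animals behind a library, and the study concerned mice with or without the diet and with or without physical exercise. The E library was not analysed here. With 1 library per group no difference between groups can be tested, so values are given side by side with 95% intervals that cover counting error only.

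Cytotoxic lymphocytes kill by releasing granules that hold perforin and granzymes. Perforin, the product of Prf1, lets the granzymes, a family of serine proteases, enter the target, where granzyme B (Gzmb) cleaves caspases and granzyme A (Gzma) cuts other substrates with a trypsin-like preference. Granzyme K (Gzmk) is another trypsin-like protease known from effector-memory and exhausted T cells, and granzyme M (Gzmm) is a family member with another cleavage preference. Nkg7 encodes a membrane protein of the cytotoxic granule. Fasl encodes the ligand that triggers death through the receptor Fas, and Ifng encodes interferon gamma, which acts on macrophages, endothelium and hepatocytes. The liver is rich in NK cells, ILC1 and NKT cells, for which these genes are typical.

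After filtering, 10219 cells of S, 10736 of HFD_sed and 10173 of HFD_EXE remained, from 11660, 11752 and 11280 barcodes. The labels state that 5000 to 6000 cells were captured per sample, fewer than the barcodes in the matrices. Any 2 libraries had 29 to 46 cell barcodes in common. Median depth was 6156, 4178 and 4914 UMIs per kept cell, a UMI being a tag that marks 1 captured RNA molecule, so the HFD_sed library was the shallowest. T, NK and ILC cells were clustered without the 8 genes and without the other granzyme genes. They were named from lists of lineage markers, with share thresholds set after sub-clusters had been seen. The libraries filled these classes very unevenly. The CD8 T-like class held 50 cells of S, 1508 of HFD_sed and 50 of HFD_EXE, which was 0.489%, 14% and 0.492% of the kept cells. The NK-like class held 171, 118 and 50 cells and the ILC1-like class 69, 54 and 44. NKT-like cells numbered 389, 127 and 368, and CD4 T-like cells 46, 629 and 54. A sub-cluster of Cd8b1 cells with Tcf7, the factor of naive and memory T cells, was kept apart as Tcf7 CD8 cells (75, 219 and 134). Tcf7 stood higher still in naive-like T cells of each library. Cd8b1 was detected in 58.7%, 63.9% and 68.7% of the Tcf7 CD8 cells. The gamma-delta gene Trdc was detected in 17.33%, 10.96% and 11.19% of them and the NK receptor gene Klrb1c in 25.33%, 11.42% and 20.15%. The rule that set them apart used the share of cells with Lef1 and was chosen with shares of Gzma, Gzmb and Gzmk in view. Differences in these genes between Tcf7 CD8 and CD8 T-like cells are therefore not independent of the naming. Another sub-cluster, led by the NK receptor genes Klra6 and Klra7, had a Cd8a UMI in 87.1% of its cells in S and 75.6% in HFD_sed but Cd8b1 in 0 of 85 and 1 of 135. It also had Klrb1c (71.8% and 54.8%), stayed without a type name and is called Klra T cells (85, 135 and 8).

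The label of the CD8 T-like class did not hold equally in the 3 libraries. Cd8b1, which encodes the beta chain of the CD8 co-receptor of conventional CD8 T cells, had a UMI in 1238 of 1508 cells of HFD_sed (82.1%) and 29 of 50 cells of HFD_EXE (58.0%), but in 19 of 50 cells of S (38.0%). In S, 8 of the 50 cells had a UMI of the gamma-delta gene Trdc and 11 had one of the NK receptor gene Klrb1c. The level of each gene and its CD8 ratio to S are therefore also given over the cells with a Cd8b1 UMI and no Trdc UMI, which were 17 cells of S, 1228 of HFD_sed and 27 of HFD_EXE. The other CD8 values below are over the whole class. Different sub-clusters fill this class. Sub-clusters 8 (led by Cx3cr1, Zeb2 and Klrg1) and 14 held 24 and 21 of the 50 cells of S. Sub-clusters 0 and 4 held 739 and 420 of the 1508 cells of HFD_sed but 2 and 3 cells of S. The gamma-delta class differed too: 158 of its 162 cells in HFD_sed lay in a sub-cluster with 0 cells in S and 1 in HFD_EXE, while the cells of the other libraries lay in a sub-cluster with Il17a. No gamma-delta comparison between libraries was made.

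The next stretches of DNA are shown because Gzma, Gzmb and Gzmk parted ways in CD8 T-like cells of HFD_sed: Gzmb was detected more often in cells with Gzma, and Gzmk showed no such gap. Each stretch is the 250 bases before the annotated gene start in RefSeq, build GRCm38.p6. It is given 5′ to 3′ on the strand of the gene, here the minus strand for all of these genes. The count matrices were made on GRCm39, so these positions belong to the older build. Capitals mark matches, on either strand, to the core motifs of RUNX factors (TGTGGT), T-box factors (TCACAC) and AP-1 (TGANTCA), factor families known to act on effector genes.
Gzma, chr13:113100982-113101231: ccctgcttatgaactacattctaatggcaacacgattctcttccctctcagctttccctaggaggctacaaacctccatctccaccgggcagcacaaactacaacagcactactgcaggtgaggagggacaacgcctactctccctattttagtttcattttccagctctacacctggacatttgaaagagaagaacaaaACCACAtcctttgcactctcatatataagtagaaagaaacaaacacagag
Gzmb, chr14:56262335-56262584: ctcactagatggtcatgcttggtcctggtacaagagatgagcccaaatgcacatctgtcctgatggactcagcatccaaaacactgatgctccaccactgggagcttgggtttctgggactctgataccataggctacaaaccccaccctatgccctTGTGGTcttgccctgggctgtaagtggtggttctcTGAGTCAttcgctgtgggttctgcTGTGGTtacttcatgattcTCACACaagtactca
Gzmk, chr13:113180966-113181215: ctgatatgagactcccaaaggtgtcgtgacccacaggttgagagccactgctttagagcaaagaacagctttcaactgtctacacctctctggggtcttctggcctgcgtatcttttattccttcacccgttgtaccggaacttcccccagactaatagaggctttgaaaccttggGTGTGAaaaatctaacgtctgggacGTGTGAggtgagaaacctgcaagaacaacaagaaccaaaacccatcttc
The Gzma stretch held 1 RUNX match, from 50 to 45 bases before the start. The Gzmb stretch held 2 RUNX matches, 1 T-box match and 1 AP-1 match (TGAGTCA, from 58 to 52 bases before the start). The Gzmk stretch held 2 T-box matches and none to RUNX or AP-1. Such matches are common: of 32841 promoter stretches of the same length, 14% held the RUNX motif, 12.3% the T-box motif and 6.75% the AP-1 motif. A match describes letters and not a bound site.

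Most Gzma of the liver came from NK-like cells in S and HFD_EXE and from several T cell classes in HFD_sed. Over all kept cells Gzma stood at 141, 201 and 41.2 CPM (UMIs scaled to the same total in every sum) in S, HFD_sed and HFD_EXE. NK-like cells held 65.8% of the Gzma UMIs in S and 59.8% in HFD_EXE. In HFD_sed they held 23.8%, Klra T cells 30.9% and CD8 T-like cells 22.1%. For Gzmb the CD8 T-like class held 4.17% in S, 41.9% in HFD_sed and 8.76% in HFD_EXE. For Gzmk it held 11.1%, 64.3% and 31.8%, and in HFD_EXE the Tcf7 CD8 cells held 45.7%. For Ifng and Fasl the NKT-like cells held more than any other class in S (35.5% and 43.7%) and HFD_EXE (58.2% and 52.4%), while in HFD_sed these cells held 5.11% and 4.92% and CD8 T-like cells held 54.0% of Fasl. These shares follow the cell numbers above as well as the level per cell, and they are not levels.

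**Figure D1:**
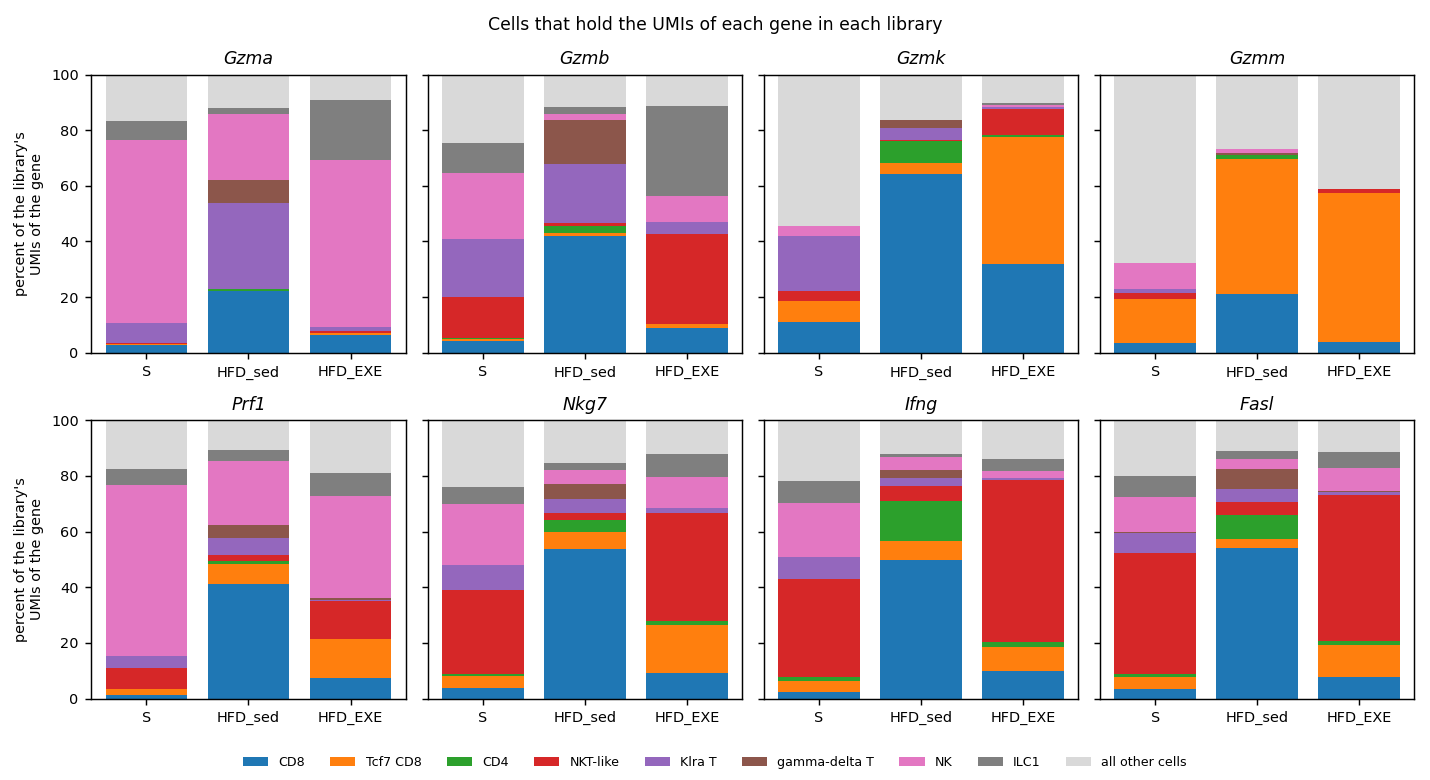
Share of each gene's UMIs (y axis, percent of the UMIs in all kept cells of the library) by cell class (colours), with 1 bar per library for each of the 8 genes. In HFD_sed the CD8 T-like class takes 64.3% of Gzmk and 54.0% of Fasl, and in S the NK-like class takes 65.8% of Gzma.

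Levels per class were taken as CPM of the UMIs summed over its cells. The 3′ kit counts molecules, so genes were compared with no division by length. Gzma was highest in NK-like cells, at 8849 CPM in S (95% Poisson interval 8645 to 9057), 6590 in HFD_sed and 6294 in HFD_EXE, with a UMI in 97.1%, 93.2% and 94.0% of cells. Every library had NK-like cells as its main bearers per cell except HFD_sed, where Klra T cells stood at 7244 CPM. ILC1-like cells followed at 1939, 904 and 2236 CPM and gamma-delta T-like cells of HFD_sed at 1604. CD8 T-like cells held 1268, 582 and 692 CPM. The ranges of Klra T, ILC1-like and gamma-delta cells met, so their order is not separated by the spread between libraries. NKT-like cells were low in every library, at 14.8, 14.1 and 11.6 CPM. As a measure of free RNA, B-like cells, which should lack the gene, held 2.45, 8.76 and 1.09 CPM, with a UMI in 1.02%, 1.99% and 0.407% of cells at median depths of 3650.5, 2862 and 3440 UMIs. The NKT-like Gzma of HFD_sed was 8 UMIs and lay near this background.

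Gzmb had another order. Klra T cells held 1329 CPM in S and 3695 in HFD_sed, gamma-delta T-like cells of HFD_sed held 2272, and ILC1-like cells held 775, 705 and 2271. NK-like cells held 807, 424 and 672 CPM and CD8 T-like cells 458, 817 and 629, with ranges that overlapped. NKT-like cells held 166, 197 and 313 CPM and did not reach the range of the classes above them. B-like cells held 2.45, 8.14 and 0.545 CPM.

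Among the named classes Gzmk was highest in CD8 T-like cells in HFD_sed and HFD_EXE, while in S Klra T cells stood level with them. CD8 T-like cells held 36.5, 232 and 184 CPM and Tcf7 CD8 cells 11.4, 52 and 65.7. Klra T cells held 37.6 in S and 145 in HFD_sed, and gamma-delta T-like cells of HFD_sed 73.6. CD4 T-like cells held 0, 76.8 and 4.83 CPM, above Tcf7 CD8 cells in HFD_sed. NK-like cells, the richest in Gzma, held 3.72, 2.32 and 4.48 CPM, from 3, 1 and 1 UMIs. ILC1-like cells had 0, 0 and 1 Gzmk UMIs, where 0 allows up to 8.01 and 10.3 CPM. Gzmm was low throughout and highest in Tcf7 CD8 cells, at 41.9, 57.8 and 73.5 CPM, above every library of the CD8 T-like class (20.3, 6.62 and 22.5). No Gzmm UMI was seen in ILC1-like cells of any library.

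Prf1, the pore-forming partner, was highest in NK-like cells at 1300, 920 and 1022 CPM. ILC1-like cells came next at 262, 237 and 219, a range that did not meet that of NK-like cells. CD8 T-like cells held 97.2, 157 and 202 CPM, Tcf7 CD8 cells 66.7, 103 and 96.9, and NKT-like cells 53.8, 65.1 and 50.5. CD4 T-like cells held 3.71, 9.81 and 4.83 CPM, from 1, 17 and 1 UMIs, close to the 1.40, 4.07 and 3.27 CPM of B-like cells. Nkg7 was the most widely shared gene: it had a UMI in at least 80.3% of NK-like, ILC1-like, CD8 T-like and NKT-like cells in each library. Its level ran from 1798 to 2299 CPM in NK-like cells and from 1333 to 1781 in CD8 T-like cells, and from 230 to 368 in CD4 T-like cells. B-like cells held 9.08, 10.0 and 7.08 CPM of Nkg7.

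Ifng and Fasl were spread more evenly over NK-like, NKT-like and CD8 T-like cells than Gzma and Prf1. Ifng stood at 356, 213 and 44.8 CPM in NK-like, at 223, 187 and 138 in NKT-like and at 142, 229 and 171 in CD8 T-like cells, ranges that overlap. Fasl stood at 142, 243 and 224 CPM in NK-like, 170, 250 and 193 in NKT-like and 134, 344 and 207 in CD8 T-like cells, again with overlap. Tcf7 CD8 cells lay below these ranges for Fasl, at 74.3, 81.3 and 79.1 CPM. CD4 T-like cells held 74.1, 173 and 33.8 CPM of Ifng and 29.6, 141 and 43.5 of Fasl. B-like cells held at most 3.44 CPM of Ifng and 4.38 of Fasl.

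**Figure D2:**
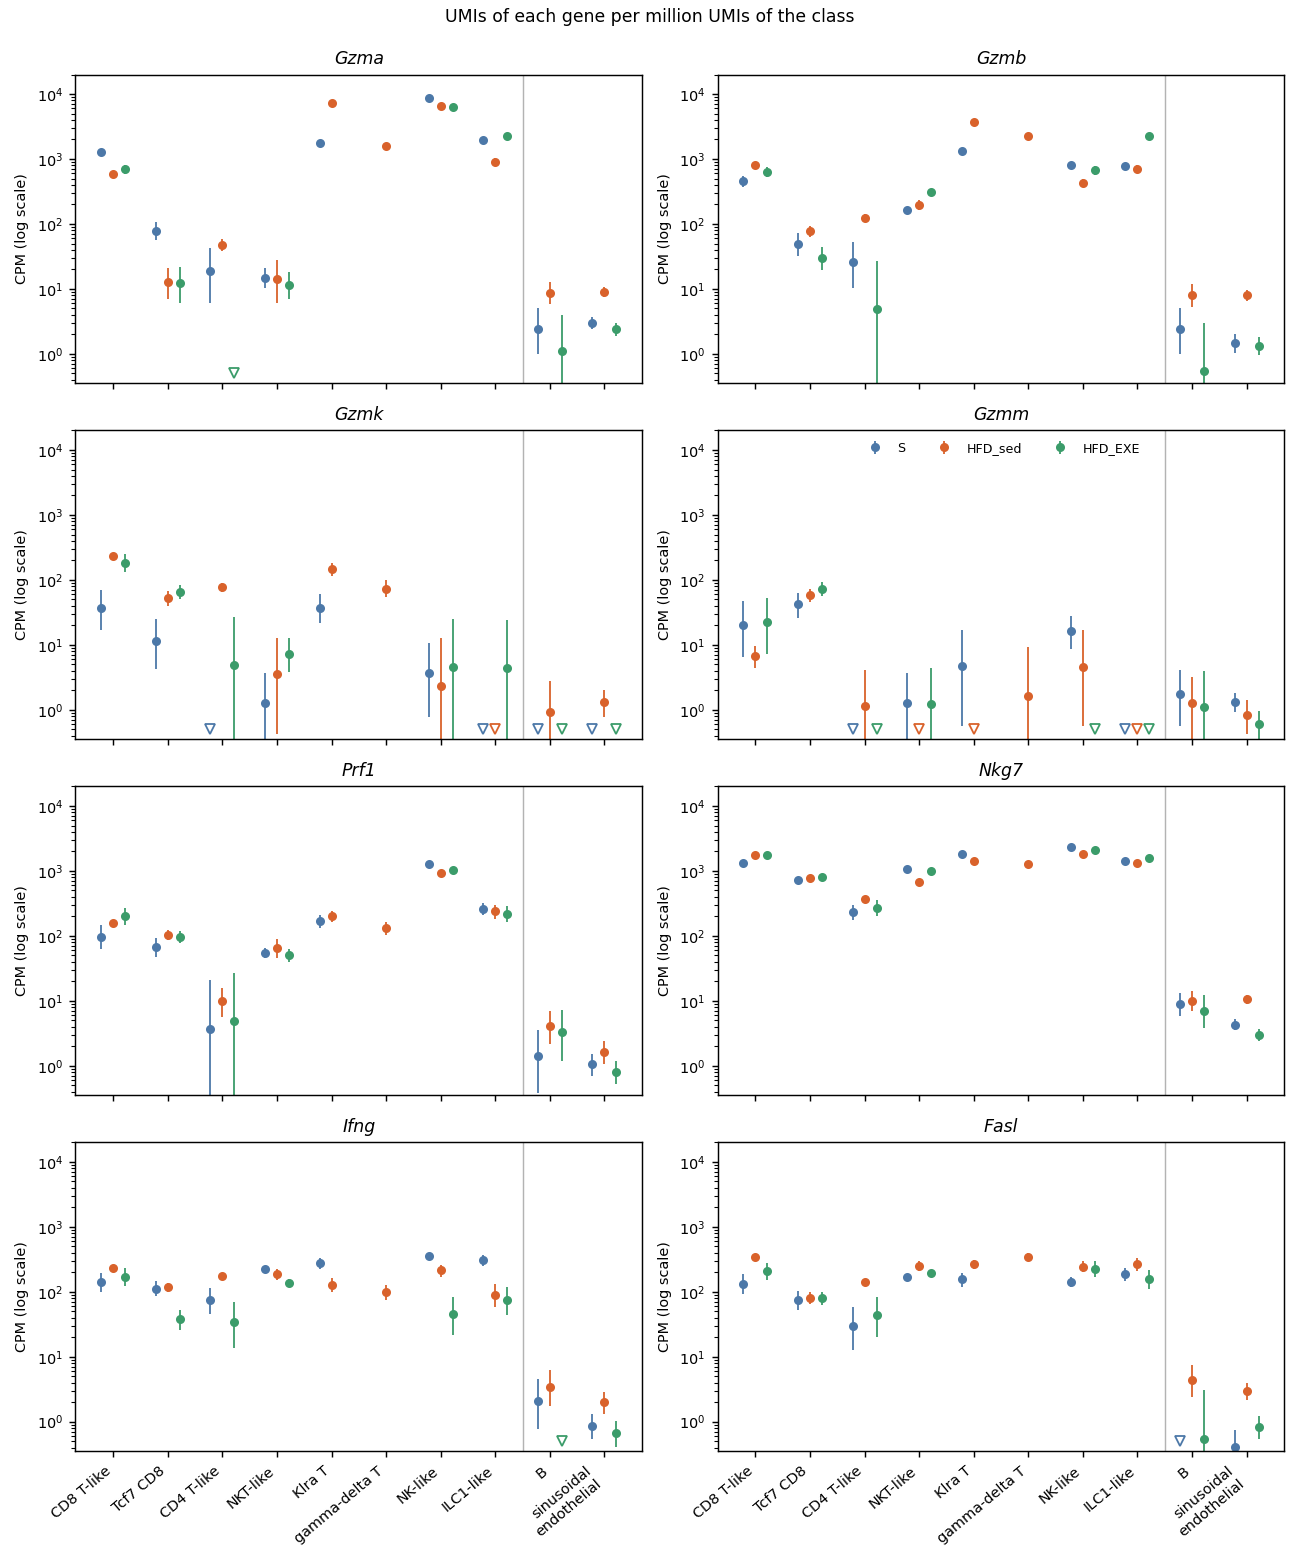
Level of each gene (y axis, CPM on a log scale) by cell class (x axis) and library (colours), with exact Poisson 95% intervals as bars and open triangles for sums with 0 UMIs. Only sums of at least 30 cells are drawn, and B-like and sinusoidal endothelial-like cells at the right show the background. Prf1 peaks in NK-like cells in each library. Gzma does so in S and HFD_EXE, while in HFD_sed Klra T cells stand higher (7244 against 6590 CPM). Gzmk peaks in CD8 T-like cells of HFD_sed at 232 CPM.

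The classes also differed in which granzyme they used, counted as a share of the UMIs of Gzma, Gzmb, Gzmk and Gzmm together. NK-like cells were nearly all Gzma, at 91.5%, 93.9% and 90.3%. NKT-like cells were nearly all Gzmb, at 90.6%, 91.8% and 94.0%. ILC1-like cells were mixed, with 71.5%, 56.2% and 49.6% Gzma. CD8 T-like cells of HFD_sed had 35.5% Gzma, 49.9% Gzmb and 14.2% Gzmk. Tcf7 CD8 cells had the broadest mix, with 23.2%, 29.0% and 40.5% Gzmm and 6.32%, 26.1% and 36.2% Gzmk.

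**Figure D3:**
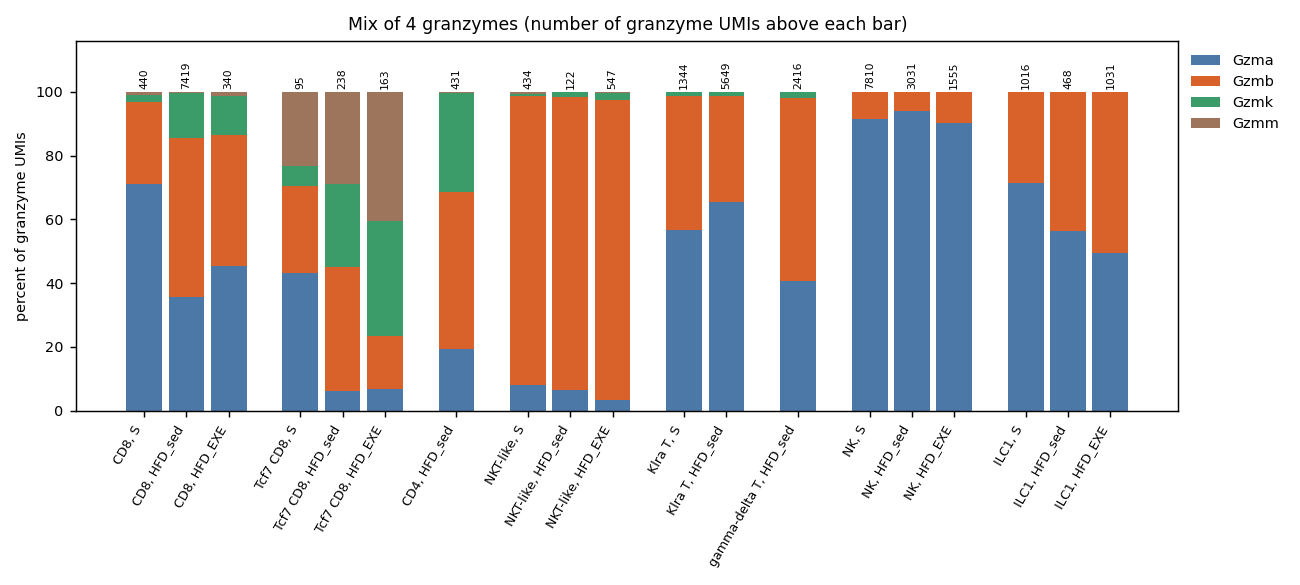
Make-up of the granzyme UMIs (y axis, percent) from Gzma, Gzmb, Gzmk and Gzmm (colours) by cell class and library (x axis). NK-like bars are at least 90.3% Gzma in each library and NKT-like bars at least 90.6% Gzmb.

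Differences between libraries are described for HFD_sed against S and for HFD_EXE against HFD_sed. Both use the HFD_sed library, so a value that stands out there enters both with opposite sign. A gene counts as past 2-fold where its ratio is at least 2 and the class holds 20 or more of its UMIs over both libraries. Hepatocyte RNA in the lymphocytes moved with the comparison: the 6 hepatocyte markers summed to 940, 297 and 162 CPM in CD8 T-like cells of S, HFD_sed and HFD_EXE, to 1222, 271 and 247 in NK-like and to 994, 151 and 333 in ILC1-like cells, with at most 1 of the 6 at 0. The 8 sinusoidal endothelial markers summed to 336, 233 and 382 CPM in CD8 T-like and to 358, 243 and 533 in NK-like cells. Their part in the results was not tested.

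Over the CD8 T-like class as a whole Gzmk and Fasl were higher in HFD_sed than in S, and Gzma was lower. The 50 cells of S held 9 Gzmk UMIs (36.5 CPM, 16.7 to 69.2), the 1508 cells of HFD_sed held 1052 (232 CPM, 218 to 247) and the 50 cells of HFD_EXE held 41 (184 CPM, 132 to 250). S was the low library and its interval met neither of the others. The log2 ratio of HFD_sed to S was 2.67 (1.74 to 3.80), a 6.37-fold difference. At 1500 UMIs per cell, 6.00%, 27.6% and 24.4% of cells had a Gzmk UMI, and 14%, 44.0% and 38.0% did unthinned. B-like cells held 0, 0.939 and 0 CPM, where 0 UMIs allow up to 1.05 CPM in S and 1.63 in HFD_EXE at 3 counts.

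Fasl stood at 134, 344 and 207 CPM, 2.57-fold higher in HFD_sed than in S (log2 1.36, 0.87 to 1.91). The ratio of HFD_EXE to HFD_sed was -0.74 (-1.19 to -0.31) on the log2 scale, within 2-fold. Gzmb stood at 458, 817 and 629 CPM (log2 0.84, 0.57 to 1.12, HFD_sed to S), Prf1 at 97.2, 157 and 202, Nkg7 at 1333, 1781 and 1776, and Ifng at 142, 229 and 171, all within 2-fold. Gzmm rested on 5, 30 and 5 UMIs. It counted as lower in HFD_sed than in S (log2 -1.61, -2.99 to 0.11) and as higher in HFD_EXE than in HFD_sed (1.76, 0.04 to 3.14), with intervals that crossed or touched no difference.

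Gzma was lower in the CD8 T-like class of HFD_sed than of S (582 against 1268 CPM, log2 -1.12, -1.29 to -0.95). This rested on few cells: 312 of the 313 Gzma UMIs of S (99.7%) lay in the 24 cells of the sub-cluster led by Cx3cr1, Zeb2 and Klrg1, genes of terminal effector T cells. Of the 313 UMIs, 254 (81.2%) lay in the 33 cells without Cd8b1 or with Trdc. Over the 17, 1228 and 27 cells with Cd8b1 and no Trdc, Gzma stood at 745, 561 and 1131 CPM, and the log2 ratio of HFD_sed to S was -0.41 (-0.78 to -0.01). Over the same cells Gzmk stayed higher in HFD_sed, at 75.8 (6 UMIs), 234 and 269 CPM (log2 1.63, 0.50 to 3.08), as did Fasl at 88.4, 343 and 146 (1.96, 0.91 to 3.27). Gzmb was then past 2-fold as well, at 290.5, 809 and 585 CPM (1.48, 0.89 to 2.14). Prf1 stood at 88.4, 161 and 262 CPM, Nkg7 at 1162, 1822 and 1970 and Ifng at 189.5, 226 and 200.1, each within 2-fold between HFD_sed and S. Gzmm stood at 37.9, 7.36 and 15.4 CPM, from 3, 29 and 2 UMIs (-2.36, -4.05 to -0.01). Over these cells 3 of the 8 genes counted as higher and 1 (Gzmm) as lower in HFD_sed against S, beside 29.4% and 11.5% of genes measured. For HFD_EXE against HFD_sed 2 were higher (Gzma and Gzmm) and 1 lower (Fasl), beside 8.67% and 21.5%. These too rest on few cells: the 147 Gzma UMIs of HFD_EXE lay in 6 of 27 cells and the 59 of S in 3 of 17, and the 2 Gzmm UMIs of HFD_EXE in 1 cell.

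Of the 8 genes, 2 counted as higher and 2 as lower in the CD8 T-like class of HFD_sed against S. Of the 10182 genes measured there, 15.8% were higher and 7.93% lower by the same rule, so 2-fold differences were common in this pair of libraries. The median log2 ratio was 0.69 over the 8 genes and 0.12 over all genes measured. For HFD_EXE against HFD_sed 1 counted as higher (Gzmm) and 0 as lower, beside 7.12% and 16.5% of all genes measured, with medians of -0.17 and -0.10. There was no test, so no p-value stands behind the 0.

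Other ways to draw the CD8 class gave other counts. A gate on lineage genes took cells with a UMI of Cd3d, Cd3e, Cd3g or Trac, a Cd8b1 UMI and no Cd4 UMI. It took 271, 1522 and 215 cells, of which 58.7% in S were naive-like and 80.6% in HFD_sed were of the CD8 T-like class. In it Gzma stood at 83.9, 488 and 140.5 CPM, the opposite direction, and 7 of 8 genes were higher and 0 lower in HFD_sed than in S, beside 9.14% and 7.73% of genes measured. By this gate 1 was higher and 6 lower in HFD_EXE against HFD_sed, beside 5.04% and 10.1%. In the sub-cluster led by Cx3cr1, Zeb2 and Klrg1 alone (24, 258 and 17 cells) Gzma stood at 3072, 1060 and 1150 CPM. Gzmk stood at 39.4, 223 and 251 CPM in this sub-cluster, from 4, 179 and 17 UMIs. There 1 gene was higher and 2 lower in HFD_sed against S, beside 13.6% and 7.1% of genes measured, and none passed 2-fold in HFD_EXE against HFD_sed, beside 8.06% and 16.6%. Cd8b1 had a UMI in 7 of the 24 cells of S (29.2%) and in 234 of the 258 of HFD_sed (90.7%). Gzmk was past 2-fold higher in HFD_sed than in S under each of these 4 definitions, which share cells and are not independent. In S the class held 9 Gzmk UMIs, of which its Cd8b1 cells held 6 and the sub-cluster 4. The direction of Gzma was not the same under all definitions. Fasl was within 2-fold in the sub-cluster alone and past 2-fold higher under the other definitions.

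**Figure D4:**
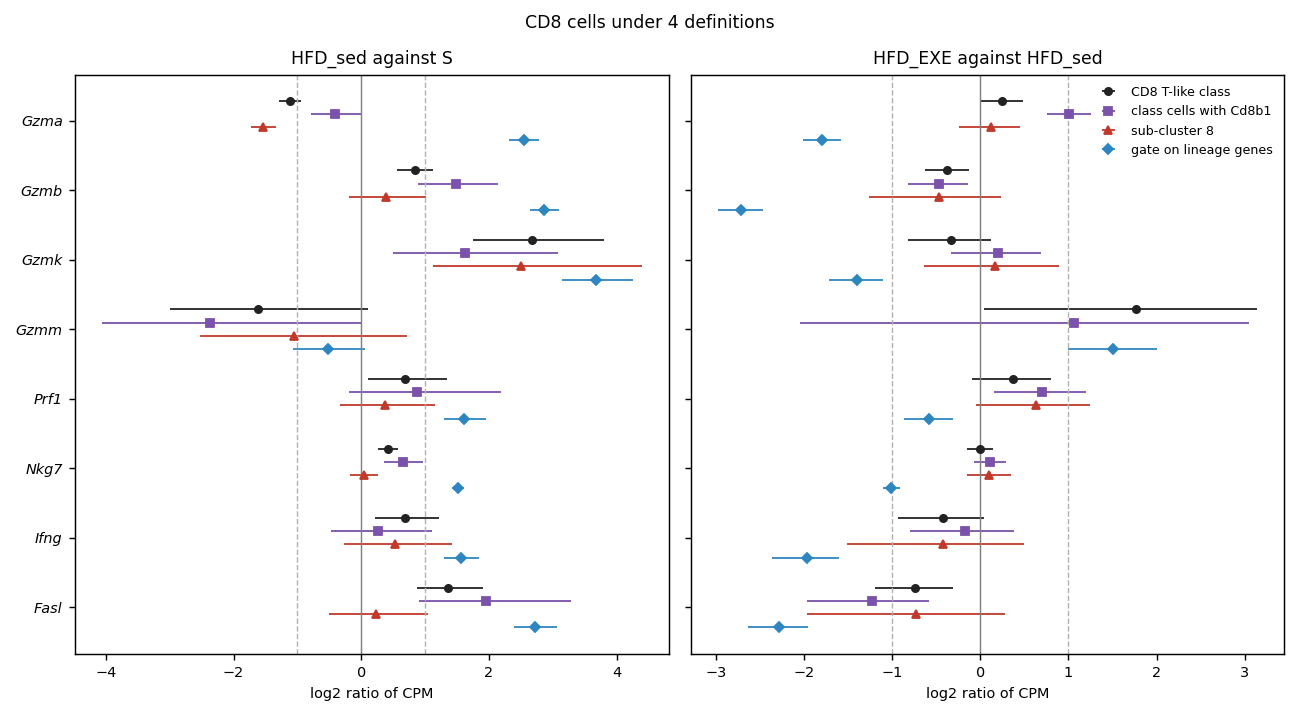
Log2 ratios of each gene in CD8 cells (x axis) for HFD_sed over S (left) and HFD_EXE over HFD_sed (right) under 4 definitions of the cells (colours): the class, its cells with Cd8b1 and no Trdc, the sub-cluster led by Cx3cr1, Zeb2 and Klrg1, and a gate on lineage UMIs. Bars are exact 95% intervals for counting error and dashed lines mark 2-fold. In the left panel Gzmk lies above the upper line under each definition, and Gzma is at 2.54 under the gate and at -1.12 in the class.

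In Tcf7 CD8 cells Gzmk was again higher in HFD_sed than in S, and Ifng and Gzmb were lower in HFD_EXE than in HFD_sed. Gzmk stood at 11.4, 52 and 65.7 CPM in the 75, 219 and 134 cells, from 6, 62 and 59 UMIs. S was the low library and its interval (4.19 to 24.9) met neither of the others (log2 2.19, 0.98 to 3.69, HFD_sed to S). Nkg7 (714, 768 and 814 CPM), Fasl (74.3, 81.3 and 79.1) and Gzmm were within 2-fold in both comparisons. Ifng stood at 112, 117 and 37.9 CPM, lower in HFD_EXE than in HFD_sed (log2 -1.63, -2.22 to -1.08). Gzmb, at 49.5, 77.1 and 30.1, was lower there too (log2 -1.36, -2.04 to -0.73). The Gzma of S, 78.1 CPM against 12.6 and 12.2, was 41 UMIs in 4 of 75 cells. Thus 1 gene was higher and 1 lower in HFD_sed against S, beside 5.5% and 3.02% of genes measured, and 0 higher and 2 lower in HFD_EXE against HFD_sed, beside 2.61% and 4.23%.

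NK-like cells kept their granule genes within 2-fold in both comparisons, while Ifng differed. Ifng had 287, 92 and 10 UMIs in the 171, 118 and 50 cells, or 356 (316 to 399), 213 (172 to 261) and 44.8 CPM (21.5 to 82.4). The 3 intervals did not meet, and HFD_EXE was lowest, 4.75-fold below HFD_sed (log2 -2.25, -3.36 to -1.31). At 1500 UMIs per cell 30.8%, 18.3% and 8% of NK-like cells had an Ifng UMI, against 0.296% and 0.732% of the B-like cells of S and HFD_sed. B-like cells of HFD_EXE had 0 Ifng UMIs, which allows up to 1.63 CPM. Gzma was 8849, 6590 and 6294 CPM, and its log2 ratios were -0.43 and -0.07. Gzmb was 807, 424 and 672, with ratios of -0.93 (-1.17 to -0.69) and 0.67 (0.35 to 0.99), the former just inside 2-fold. Prf1 was 1300, 920 and 1022. Of 6 genes with enough UMIs, 0 passed 2-fold in HFD_sed against S, beside 4.18% of all genes measured that were higher and 4.87% lower. For HFD_EXE against HFD_sed 0 were higher and 1 (Ifng) lower, beside 2.86% and 5.72%.

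In ILC1-like cells, tissue-resident relatives of NK cells, Ifng was highest in S, Gzmb was highest in HFD_EXE and Gzma was lowest in HFD_sed. Ifng stood at 307, 89.4 and 74.4 CPM, with S 3.44-fold above HFD_sed (log2 -1.78, -2.45 to -1.16). Gzma stood at 1939, 904 and 2236 CPM and Gzmb at 775, 705 and 2271. HFD_EXE exceeded HFD_sed in both, with log2 ratios of 1.31 (1.09 to 1.53) and 1.69 (1.45 to 1.93). The share of cells with Gzma hardly moved, at 39.7%, 37.0% and 32.5% of thinned cells, while the UMIs per cell with the gene were 25.0, 11.4 and 28.4. In HFD_EXE 1 cell held 125 of the 511 Gzma UMIs (24.5%), whereas 1 cell held 49 of the 519 Gzmb UMIs (9.44%). A gate on lineage genes took only 17 cells of HFD_sed and 22 of HFD_EXE, and its Gzma ratio was -0.03. Prf1 (262, 237 and 219 CPM) and Nkg7 (1432, 1331 and 1562) were within 2-fold. Of 6 genes measured, 0 were higher and 2 lower in HFD_sed against S, beside 3.88% and 4.18% of all genes, and 2 higher and 0 lower in HFD_EXE against HFD_sed, beside 4.57% and 6.19%.

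Klra T cells showed the highest Gzma and Gzmb levels among the T cell classes and were compared only between S (85 cells) and HFD_sed (135 cells). Gzma stood at 1784 and 7244 CPM (log2 2.02, 1.91 to 2.14), Gzmb at 1329 and 3695 (1.48, 1.34 to 1.61) and Gzmk at 37.6 and 145 (1.95, 1.16 to 2.83). Ifng went the other way, at 275 and 128 CPM (-1.11, -1.57 to -0.66). Prf1, at 167 and 202, Nkg7, at 1810 and 1424, and Fasl, at 155 and 265, were within 2-fold. Thus 3 of 7 measured genes were higher and 1 lower, beside 4.74% and 4.2% of all genes. In HFD_sed, 132 of the 135 cells had a Gzmb UMI and 124 a Gzma UMI, and the cell richest in Gzma held 4.71% of its UMIs.

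CD4 T-like cells of HFD_sed held more Gzmk, Gzmb, Ifng and Fasl than the same class in the other libraries. A Cd4 UMI was found in 76.1%, 57.1% and 59.3% of the class in S, HFD_sed and HFD_EXE. Cd8a was found in 6.52%, 9.70% and 5.56%. Different sub-clusters fill this class: 45 of the 46 cells of S and 44 of the 54 of HFD_EXE lay in sub-cluster 9, and 460 of the 629 of HFD_sed in sub-cluster 3. Gzmk had 0, 133 and 1 UMIs (0, 76.8 and 4.83 CPM), at least 6.90-fold higher in HFD_sed than in S when S is set at 3 counts. Gzmb stood at 25.9, 123 and 4.83 CPM, Ifng at 74.1, 173 and 33.8 and Fasl at 29.6, 141 and 43.5. Against S the log2 ratios were 2.25 (1.18 to 3.58), 1.22 (0.57 to 1.96) and 2.25 (1.25 to 3.48). HFD_EXE against HFD_sed gave -4.67 (-9.98 to -2.18, from 1 Gzmb UMI), -2.36 (-3.68 to -1.30) and -1.70 (-2.84 to -0.75), and -3.99 (-9.31 to -1.49) for the single Gzmk UMI. Gzma counted as higher (18.5, 47.9 and 0 CPM), but 59 of the 83 UMIs of HFD_sed (71.1%) lay in 1 cell. By a gate on lineage genes (182, 441 and 118 cells) the log2 ratio of Gzma between HFD_sed and S was -1.97 and that of Gzmb between HFD_EXE and HFD_sed was 1.03, the opposite directions. Between HFD_sed and S this gate put Gzmb (0.50), Ifng (0.88) and Fasl (0.88) within 2-fold and Prf1 at -1.03 (-2.22 to 0.10). Gzmk stayed higher there, with 0 UMIs in S and 99 in HFD_sed. For HFD_EXE against HFD_sed the gate had Prf1 at 1.88, Gzmk at -1.85, Ifng at -2.10 and Fasl at -0.49. The share of all genes was not taken for the CD4 gate. Over the class, and not the gate, 5 of 6 genes were higher in HFD_sed against S, and 0 lower, beside 16.2% and 4.7% of all genes measured. For HFD_EXE against HFD_sed 0 were higher and 5 of 6 lower, beside 4.03% and 15%. Prf1 stayed near background in each library, as given above.

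NKT-like cells differed little in these genes although different sub-clusters fill the class: sub-cluster 2 held 387 of the 389 cells of S and 120 of the 127 of HFD_sed, and sub-cluster 7 held 327 of the 368 of HFD_EXE. Gzmb stood at 166, 197 and 313 CPM, Nkg7 at 1077, 677 and 1010, Ifng at 223, 187 and 138 and Fasl at 170, 250 and 193. All 6 genes measured were within 2-fold in both comparisons. Of all genes measured, 3.45% were higher and 7.33% lower in HFD_sed against S, and 7.49% and 2.98% in HFD_EXE against HFD_sed. A single cell held 33 of the 106 Ifng UMIs of HFD_sed (31.1%).

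Co-detection was counted in cells thinned to 1500 UMIs each, so that depth per cell could not set it. In CD8 T-like cells of HFD_sed, 222 of 327 cells with Gzma had Gzmb (67.9%), against 442 of 1030 without (42.9%), a gap of 25.0 percentage points (18.8 to 30.9). The gap was 28.2, 26.3 and 26.5 points within the 3 largest sub-clusters taken singly. For Gzmk the gaps were smaller and their intervals held 0. It was found in 29.1% of cells with Gzma and 27.1% without, a gap of 1.97 points (-3.66 to 7.86), and in 29.7% of cells with Gzmb and 25.5% without (4.13, -0.73 to 8.98). In unthinned cells, which differ in depth, these gaps were 7.35 (1.57 to 13.1) and 12.8 points (7.63 to 17.9). The part of depth in this was not tested. Within sub-clusters 0, 4 and 8 the thinned gap between Gzmb and Gzmk was 1.36, 7.69 and 9.62 points, each with an interval that held 0 (-3.03 to 22.8 in sub-cluster 8). In gamma-delta T-like cells of HFD_sed Gzmk was in 8 of 54 thinned cells with Gzma (14.8%, 6.62 to 27.1) and 4 of 88 without (4.55%, 1.25 to 11.2). Unthinned, the shares were 30.4% (19.9 to 42.7) and 8.60% (3.79 to 16.2). In Klra T cells of S it was in 5 of 48 thinned cells with Gzma and 0 of 36 without (interval up to 9.74%). Gzma and Gzmb also went together in ILC1-like cells: Gzmb was in 77.8% of the cells of S with Gzma and 31.7% of those without (gap 46.1, 20.2 to 65.3). In HFD_EXE 13 of 13 ILC1-like cells with Gzma had Gzmb, and 51.9% of those without. Unthinned, the ILC1-like gap was 46.6 points (24.9 to 63.1) in S and 19.7 (-9.11 to 42.8) in HFD_EXE. Prf1 was in 80.2% of NK-like cells of S with Gzmb and 56.4% of those without, a gap of 23.8 points that was 5.40 (-9.04 to 20) in another random draw.

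Counting the 8 genes in each thinned cell ranks the classes by breadth. NK-like cells had a mean of 3.63, 3.37 and 3.28 of the 8 genes, Klra T cells 2.98 in S and 3.56 in HFD_sed, and gamma-delta T-like cells of HFD_sed 2.93. CD8 T-like cells had 1.96, 2.71 and 2.58, ILC1-like cells 2.74, 2.39 and 2.58, NKT-like cells 1.44, 1.40 and 1.40, Tcf7 CD8 cells 1.25, 1.13 and 1.21 and CD4 T-like cells 0.41, 0.82 and 0.30. B-like cells had 0.028, 0.053 and 0.026. A granzyme together with Prf1, the pair needed for granule killing, was seen in 68.0%, 66.1% and 74.0% of NK-like cells. It was seen in 12%, 15.3% and 31.1% of CD8 T-like, 25.0%, 14.8% and 20% of ILC1-like and 1.82%, 1.68% and 1.17% of NKT-like cells. The UMIs were also unevenly spread within a class: in CD8 T-like cells of HFD_sed 56 of 1508 cells (3.71%) held at least as many Gzma UMIs as all others together, while for Nkg7 it took 363 cells.

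The genes whose levels ran most like each effector were ranked by Pearson correlation of log2(CPM + 10) over 26 sums of a class and a library, which share depth and free RNA within a library. They are given as a description over 8081 genes. Gzma ran with Itgax (0.94), Ccl3 (0.92) and Cd244a (0.90), and with Gzmb at 0.85 and Prf1 at 0.85. Gzmb ran with Efhd2 (0.93), Litaf (0.91) and Dapk2 (0.90). Gzmk ran with Rpa2 (0.82), Cdk6 (0.76) and Cd8a (0.72), and with Gzma at only 0.26. For Prf1 they were Tm6sf1, Klre1 and Klrd1 (0.90, 0.89 and 0.89), for Nkg7 Ctsw, Epsti1 and Ifitm10 (0.95, 0.94 and 0.93), for Ifng Tbx21, Hcst and Wipf1 (0.88, 0.85 and 0.85), and for Fasl Slamf7, Klrk1 and Wipf1 (0.94, 0.91 and 0.91). Gzmm ran with Fgf13 (0.80), Ifngas1 (0.75) and Yes1 (0.71).

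Around the 8 genes, no granule gene passed 2-fold in CD8 T-like cells of HFD_sed against S, while the chemokine genes Ccl3 and Ccl4 did. Of 14 genes of granule build-up and release, 13 were measured in CD8 T-like cells and 0 passed 2-fold between HFD_sed and S, beside 15.8% of all genes higher and 7.93% lower. The median log2 ratio of these 13 genes was 0.30, against 0.12 over all genes. In NK-like cells 1 of 13 was higher and 0 lower, beside 4.18% and 4.87%. Of the 10 other death ligands and cytokines, 3 of 9 measured were higher in CD8 T-like cells of HFD_sed than of S and 0 lower, beside 15.8% and 7.93% of all genes, with a median of 0.79. These were Ccl3 (438 against 20.3 CPM), Ccl4 (3252 against 446) and Lta, with 24 UMIs against 0, a level of 5.30 CPM that is under the 12.2 that 0 UMIs allow in S. The other chemokine genes of the list, Xcl1 (132 against 166) and Ccl5 (19220 against 11118), were within 2-fold. In HFD_EXE Ccl3 stood at 103 and Ccl4 at 1434. In CD4 T-like cells 7 of 9 were higher and 0 lower (median 2.58 against 0.17 over all genes), beside 16.2% and 4.7%, among them Xcl1 (122 against 3.71) and Ccl4 (196 against 14.8). Of 5 granzyme inhibitors, 4 were measured in CD4 T-like cells, with a median of 1.45. Of these, 2 were higher in HFD_sed than in S and 0 lower, beside 16.2% and 4.7% of all genes. Serpina3g was among the higher genes (237 against 14.8 CPM). In ILC1-like cells Gzmc, a further granzyme, stood at 311 CPM in HFD_EXE against 96.3 in HFD_sed, and no other of the 6 further granzymes had 20 UMIs in any of these comparisons.

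The receptors through which these effectors act were read in the likely target cells. Ifngr1, a chain of the interferon gamma receptor, stood at 559, 415 and 481 CPM in Kupffer-like cells and at 549, 537 and 537 in monocyte-like cells. It was not particular to these cells, and NK-like cells themselves held more, at 733, 1313 and 1883 CPM. Fas, the receptor of Fasl, stood at 140, 99.7 and 180 CPM in sinusoidal endothelial-like cells, highest in HFD_EXE. In neutrophil-like cells it stood at 108, 279 and 137 CPM, highest in HFD_sed.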

How the data were processed

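Single-cell RNA was measured in liver non-parenchymal cells with the 10x Genomics 3′ version 3 kit. Cell Ranger 6.1.2 and GRCm39 are named per the submitters' processing notes; counting options were not given in the sources. The files deposited by the authors are unnormalized UMI counts for each gene in each barcode, with totals of 84666844, 63456399 and 60901242 in S, HFD_sed and HFD_EXE. Barcodes under 500 UMIs were absent. Cells with at least 500 UMIs, 300 genes and at most 15% mitochondrial UMIs were kept. Doublets were scored with Scrublet in Scanpy 1.11.5. Its automatic threshold marked 0 cells of HFD_EXE, so the mean of the other libraries' thresholds, 0.2223, was used, which removed 396, 332 and 294 cells. Libraries were clustered together without integration (2000 variable genes, 30 components, 15 neighbours, Leiden at resolution 1.0, then 1.5 within T, NK and ILC cells), leaving out the 8 genes and all other granzymes. A sub-cluster was named where 3 or more markers passed a detection share of 0.2 and a log2 fold of 1. The rules for mixed sub-clusters and for the Tcf7 CD8 sub-cluster, the share thresholds and the doublet threshold were set after sub-clusters had been seen, with shares of Gzma, Gzmb and Gzmk in view. Rebuilt classes may differ from the study's own.

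UMIs were summed per class and library, with exact Poisson intervals for CPM, Clopper-Pearson intervals for shares and exact conditional binomial intervals for ratios, at the 95% level and for counting error only. Cells are not replicates, so nothing was tested. For shares and co-detection cells were thinned to 1500 UMIs, leaving out shallower cells. Scripts were checked on simulated data. Of list genes, up to 3 per list and class were named whose interval lay past 2-fold; genes of like pattern were the 3 with the highest correlation among genes with at least 200 UMIs in sums of at least 30 cells. The 8 genes and the gene lists were chosen with earlier results of these data known. The alternatives tried are given at the end. Promoter sequences came from RefSeq.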

Additional observations from a re-analysis of the deposited data

Results flagged for a closer look

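Several of the 8 genes differed by at least 2-fold in opposite directions between cell classes under 1 contrast. With 1 library per group the difference between the classes was not tested, and the intervals cover counting error only. Between HFD_sed and S, the Gzma log2 ratio was 1.37 in CD4 T-like and 2.02 in Klra T cells but -1.12 in CD8 T-like, -2.64 in Tcf7 CD8 and -1.10 in ILC1-like cells. The CD4 value rests on 1 cell with 59 of 83 UMIs, and the Tcf7 CD8 value on 41 UMIs in 4 cells of S. In the CD8 T-like class, 38.0% of the cells of S had a Cd8b1 UMI, as given above.

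Between the same libraries, the Ifng log2 ratio was 1.22 in CD4 T-like cells but -1.11 in Klra T and -1.78 in ILC1-like cells. Between HFD_EXE and HFD_sed, the Gzma ratio was 1.31 in ILC1-like cells, while CD4 T-like cells of HFD_EXE had 0 Gzma UMIs. The Gzmb ratio was 1.69 in ILC1-like cells but -1.36 in Tcf7 CD8 and -4.67 in CD4 T-like cells, the last from 1 UMI (interval -9.98 to -2.18).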

How the results depend on the processing

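Over 14 alternatives, 22 of the 26 member ratios past 2-fold kept their direction in every one that could be run for them, and 15 stayed past 2-fold. The reversals came with the gate on lineage genes (Gzma in CD8 cells, HFD_sed against S, 2.54; Gzma in CD4 T-like cells, -1.97; Gzmb in CD4 T-like cells, HFD_EXE against HFD_sed, 1.03; Gzma in ILC1-like cells, -0.034) and with the Tcf7 CD8 sub-cluster pooled into the CD8 class (Gzma, 0.015); the cause was not tested. The number of genes past 2-fold in CD8 T-like cells of HFD_sed against S was 4, and 7 by the gate or at 1.5-fold. For HFD_EXE against HFD_sed it was 1, and 7 by the gate, 6 pooled with the Tcf7 CD8 cells, 3 over cells with Cd8b1 and no Trdc, 2 with no doublet removal or at 1.5-fold, and 0 with at least 50 UMIs or in the Cx3cr1, Zeb2 and Klrg1 sub-cluster alone. In NK-like cells the number for HFD_sed against S was 0, and 1 by the gate and 3 at 1.5-fold. For HFD_EXE against HFD_sed it was 1 in these cells, and 2 at 1.5-fold. Shares of all genes are given above for the CD8 gate, the cells with Cd8b1 and no Trdc, and the Cx3cr1 sub-cluster. No such share was taken at 1.5-fold, pooled, with no doublet removal, with at least 50 UMIs or for the NK gate. The counts under those settings therefore cannot be set against how common such differences were. The pooling, the Cx3cr1 sub-cluster, the Cd8b1 cells, the class without its interferon-led sub-cluster, the co-detection within sub-clusters and another thinning draw were added after the data were seen. Cycling cells were in no class, so leaving them out changed nothing by construction. No paired analysis was possible because each group had 1 library and no replicate number was shared. Depth limits Gzmm, with 5, 30 and 5 UMIs in CD8 T-like cells, and all values of the 50-cell classes.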

Other observations

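Gzma UMIs were also found in erythroid-like cells, which are not known for the gene, at 5.85, 102.5 and 127.1 CPM in S, HFD_sed and HFD_EXE. They lay in 2 of 41, 1 of 22 and 2 of 115 cells, and 1 cell of HFD_EXE held 56 of the 93 UMIs. The same class held Nkg7 at 2.93, 173 and 43.7 CPM.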
